A study of Rattus norvegicus with 8 samples.

Results

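The genes described here are the neuregulins Nrg1, Nrg2 and Nrg3 and the ErbB receptors Egfr, Erbb2, Erbb3 and Erbb4, 7 genes of the 30560 in the gene list, taken by their symbols. Their entries are ENSRNOG00000010392 (Nrg1, 127317 UMIs in all kept nuclei), ENSRNOG00000019093 (Nrg2, 22923), ENSRNOG00000063450 (Nrg3, 361753), ENSRNOG00000004332 (Egfr, 2593), ENSRNOG00000006450 (Erbb2, 1011), ENSRNOG00000004964 (Erbb3, 9132) and ENSRNOG00000014248 (Erbb4, 6984), where a UMI is 1 counted transcript molecule. They were measured in nuclei of the rat nodose ganglion, the ganglion that holds the cell bodies of vagal sensory neurons, which in the rat is joined to the jugular ganglion. Neuregulins are growth factors with an EGF-like domain. They bind Erbb3 or Erbb4, and Erbb2, which binds no ligand of its own, pairs with the bound receptor. Erbb3 has little kinase activity and signals through its partner, and Egfr is the receptor for EGF and related ligands. In peripheral nerve, Nrg1 carried by axons acts on Erbb2 and Erbb3 of Schwann cells and is known for setting Schwann cell survival and myelin thickness.

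The animals were Long Evans rats, 18 male and 18 female, 8 weeks old and experimentally naïve, with no allele or agent in any group. Left or right ganglia of 6 rats were joined into each of 12 pools, 3 for each labelled sex and side (ML1 to ML3 for male left, MR1 to MR3 for male right, FL1 to FL3 for female left, FR1 to FR3 for female right). Nuclear RNA was barcoded with Evercode version 2 chemistry in 8 sublibraries, and each pool was 1 replicate. By these numbers the left and right pools come from the same rats. No label ties a given left pool to a given right pool. The p-values by side therefore treat the pools as independent and measure the spread between pools.

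The 12 pools gave 36740 nuclei after filters, from 1738 to 4849 per pool, with a median of 2163 to 3626.5 UMIs per nucleus. Of 34798 barcode triples 1865 occurred in more than 1 sublibrary, and 0 were shared between pools. Y-linked genes went against the labelled sex in 2 pools: the pool labelled ML1 had 2.88 CPM (UMIs of a gene scaled to a common library total) and the pool labelled FL1 had 88.6, against 84.4 to 91.3 in the other male-labelled and 2.73 to 3.95 in the other female-labelled pools. Every comparison by sex below therefore uses labels that 2 pools contradict. The 7 genes were also tested by sex without those pools in each of 4 classes, while the interaction of sex with side and the wider pathway were tested with all pools only.

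Nuclei were grouped into 25046 neurons, 5285 satellite glia (which wrap neuron cell bodies), 2308 Schwann cells, 864 endothelial cells and smaller classes, with the 7 genes left out of the clustering and of the marker lists. Genes that vary with them were not left out. The Schwann class showed 8 of 8 measured myelinating markers at least 2-fold above the other nuclei, and 4 of 7 non-myelinating markers as well. Endothelial cells showed 7 of 7 of their markers and satellite glia 6 of 8. In the neuron class only 1 of 12 neuron markers was 2-fold above the other nuclei (Syt1). The same markers were also counted in non-neuronal nuclei, and the other nuclei included the mixed neuron subclusters named next. A further 1746 nuclei of neuron subclusters with mixed markers were set aside and enter no tested comparison. They count among the other nuclei in these marker checks, and in the totals behind the shares of UMIs.

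The 3 ligands were higher in neurons than in the other classes tested. Nrg1, which encodes both axon-bound and secreted ligands, was at 869 CPM in the lowest pool, 1110.0 at the median and 1329 in the highest pool of neurons. In satellite glia Nrg1 lay at 372, 453 and 537 CPM, and in Schwann cells at 107, 180.5 and 287 CPM. The ranges of neurons and of either glial class did not overlap. These are counts per gene, so the isoforms of Nrg1 could not be told apart, and levels are not compared between genes because the counts are not scaled to length.

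Nrg2 was at 181, 199 and 229 CPM (lowest, median and highest pool) in neurons, at 56.0, 69.7 and 90.4 CPM in satellite glia and at 15.4, 33.6 and 46.3 CPM in Schwann cells. Nrg3, a ligand of Erbb4, was at 2893, 3150.0 and 3658 CPM in neurons, at 1018, 1193 and 1423 CPM in satellite glia and at 317, 489.7 and 654 CPM in Schwann cells. Again every pool of neurons was above every pool of both glial classes. Of all UMIs of the 3 ligands, neurons held 81.1% for Nrg1, 83.1% for Nrg2 and 83.1% for Nrg3, against 67.8% of the UMIs of all genes.

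The receptors Erbb2, Erbb3 and Erbb4 were instead lower in neurons than in both glial classes. Erbb3 was at 6.42 CPM in the lowest, 13.6 at the median and 19.96 in the highest pool of neurons, against 189.5, 207 and 244 CPM in satellite glia and 337, 419 and 509 CPM in Schwann cells. Every Schwann pool was above every satellite glia pool. Erbb2 was at 1.04, 1.66 and 2.44 CPM in neurons, at 15.3, 23.4 and 42.3 CPM in satellite glia and at 14.2, 31.8 and 58.7 CPM in Schwann cells. The Erbb2 ranges of the glial classes overlapped each other and lay above that of neurons.

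Erbb4, which binds neuregulins and is itself an active kinase, was at 15.2, 20.7 and 27.7 CPM in neurons, at 116, 147 and 213 CPM in satellite glia and at 53.8, 104 and 148 CPM in Schwann cells. Satellite glia exceeded Schwann cells in Erbb4 in 12 of 12 pools, although the ranges overlapped. Egfr had the smallest contrast, with 11.3, 15.4 and 23.8 CPM in neurons, 9.20, 24.1 and 32.9 CPM in satellite glia and 35.3, 46.8 and 84.5 CPM in Schwann cells. Its neuron and satellite glia ranges overlapped, and all Schwann pools were above all satellite glia pools.

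**Figure D1:**
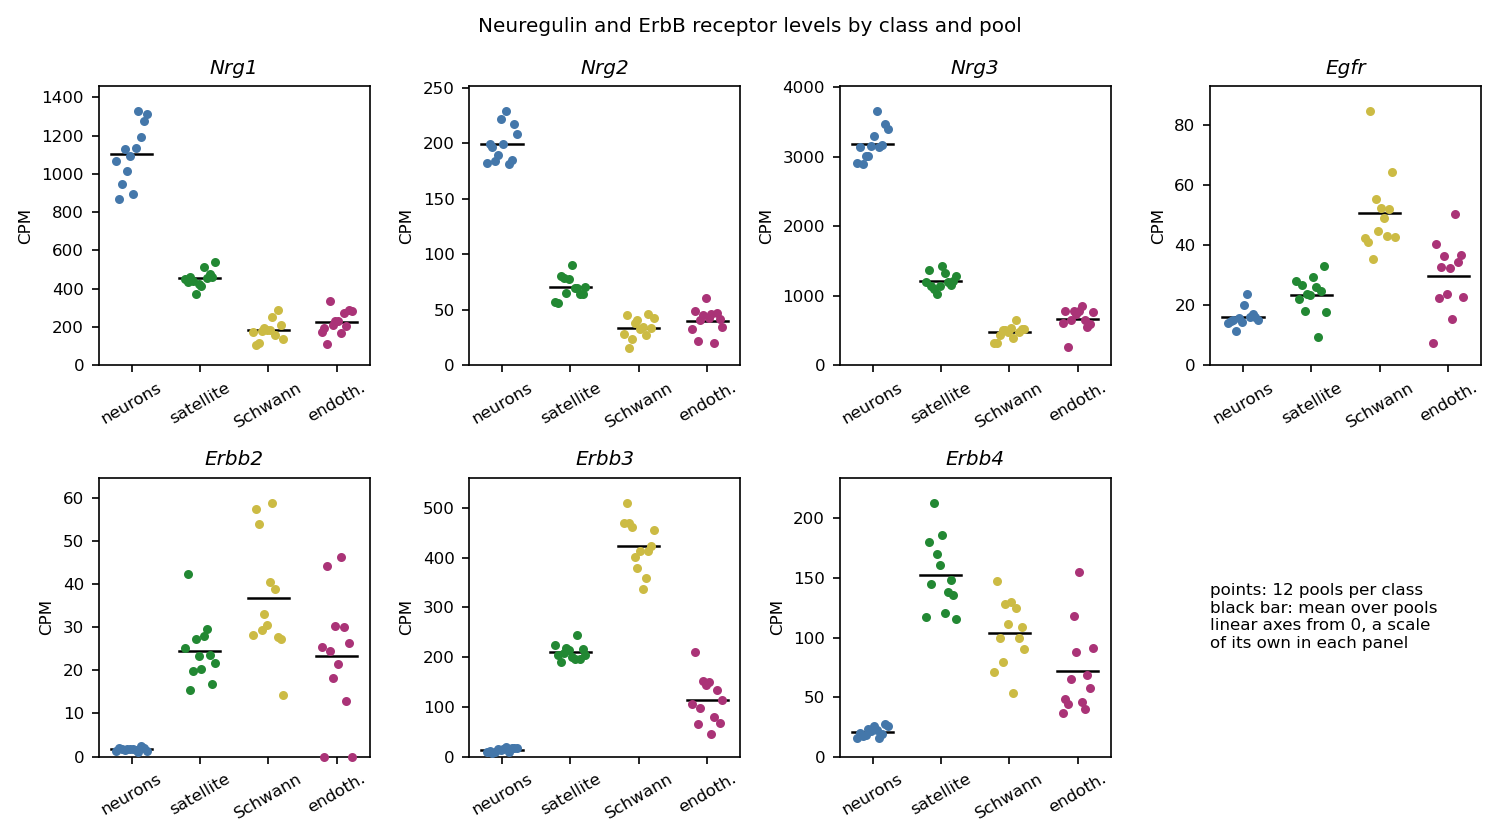
Level of each of the 7 genes in CPM (vertical axis, linear, with its own scale per gene) in the 12 pools (points) of neurons, satellite glia, Schwann cells and endothelial cells, with the mean as a black bar. Nrg1, Nrg2 and Nrg3 stand highest in neurons, Erbb3 in Schwann cells (mean 424 CPM) and Erbb4 in satellite glia (mean 153 CPM).

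UMIs summed per pool and class were tested with edgeR's quasi-likelihood test, with the pool as a block and Benjamini-Hochberg adjustment over 9600 genes, and a gene counted as changed at an adjusted p under 0.05. Between satellite glia and neurons 7 of 7 genes differed, where 77.2% of all tested genes did, so the count stands against a high background and the sizes are given. Erbb3 was 13.7-fold higher in satellite glia (log2 3.78 ± 0.09, SE, adjusted p 5.02e-48), Erbb2 11.98-fold, Erbb4 6.22-fold and Egfr 1.30-fold (log2 0.38 ± 0.09, adjusted p 0.000228). Nrg1 was 2.84-fold lower, Nrg2 3.34-fold and Nrg3 3.07-fold. In sums of this kind fewer transcripts per nucleus and fewer transcribing nuclei cannot be told apart.

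Between Schwann cells and neurons 7 of 7 genes differed again (77.2% of all genes). Erbb3 was 28.5-fold higher in Schwann cells (log2 4.83 ± 0.10, adjusted p 6.19e-52), Erbb2 17.8-fold, Erbb4 4.47-fold and Egfr 2.80-fold, and Nrg1, Nrg2 and Nrg3 were 6.45-fold, 6.29-fold and 7.53-fold lower. Between Schwann cells and satellite glia 7 of 7 differed (64% of all genes). Erbb3 was 2.08-fold, Egfr 2.15-fold and Erbb2 1.49-fold higher in Schwann cells, and Erbb4 was 1.39-fold lower (log2 -0.48 ± 0.10, adjusted p 3.5e-05). The glial classes differed in the same direction for Erbb2 and Erbb3 and in the other direction for Erbb4.

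Endothelial cells also differed from neurons in 7 of 7 genes (65.4% of all genes), with Erbb3 7.75-fold and Erbb4 3.06-fold higher and Egfr 1.53-fold higher (log2 0.62 ± 0.21, adjusted p 0.00842). That Egfr call was lost without the pool FR2 (log2 0.51, adjusted p 0.0526) and without the low-count filter (0.40, adjusted p 0.129). Against satellite glia 5 of 7 differed (51.3% of all genes), all lower, and Egfr (log2 0.23 ± 0.21) and Erbb2 (-0.19 ± 0.24) did not pass. Against Schwann cells 5 of 7 differed (36.2% of all genes), with Nrg3 1.33-fold higher and Erbb3 3.68-fold, Egfr 1.83-fold, Erbb2 1.69-fold and Erbb4 1.46-fold lower.

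Neuron transcripts were present in non-neuronal nuclei, and the ligand levels there are given beside those of neuron markers. Over all pools, Nrg1, Nrg2 and Nrg3 in satellite glia stood at 40.9%, 34.6% and 37.5% of their neuron level, while the 12 neuron markers ranged from 41.6% to 173% (median 91.2%). In Schwann cells the ligands stood at 15.2% to 17.8% and the markers at 16.6% to 69.2%. In endothelial cells they stood at 20.6% to 21.5% and 21.9% to 69.2%. Relative to neurons, the 3 ligands were below each of the 12 markers in satellite glia and endothelial cells. In Schwann cells Nrg3 was below all 12, and Nrg1 and Nrg2 were below all but Syt1. In skeletal muscle nuclei, present in the dissected tissue, the ligands stood at 69.7% to 74.0% and the markers at 33.8% to 94.3%.

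The same reading was made for receptors in neurons. Erbb3 and Erbb2 in neurons stood at 6.16% and 7.06% of their satellite glia level, and 6 satellite glia markers at 3.71% to 20.6% (median 5.78%). Against Schwann cells, Erbb3 stood at 3.11% and Erbb2 at 4.90%, within the 1.34% to 6.83% of 8 Schwann markers. Erbb4 in neurons stood at 13.9% of satellite glia and 19.2% of Schwann cells, and Egfr at 64.5% and 31.2%. Against Schwann cells Erbb4 and Egfr were above all 8 markers, and against satellite glia only Egfr was above all 6. In endothelial cells Erbb3 stood at 58.9% and Erbb4 at 52.0% of satellite glia, within the 41.6% to 300% of the satellite glia markers. What part of these levels comes from RNA of other nuclei was not tested.

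**Figure D2:**
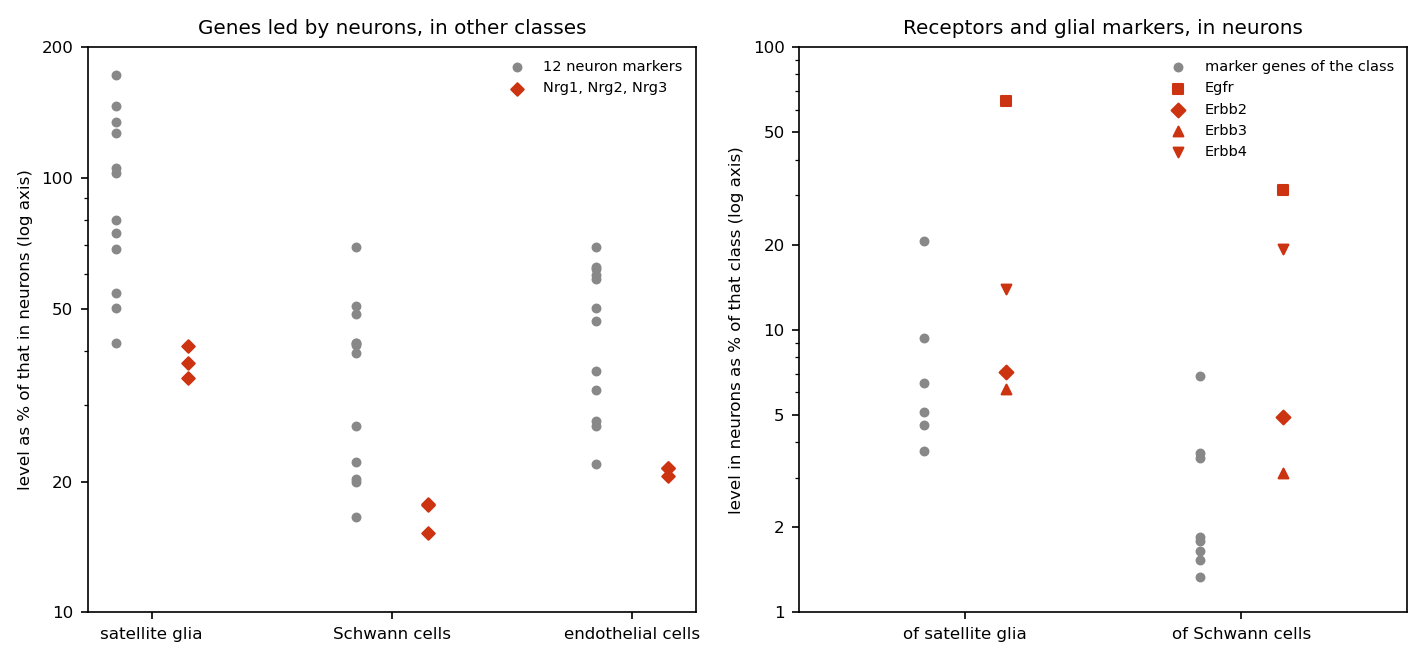
Level of a gene in 1 class as a percent of its level in another, on log axes, over all pools. At left, Nrg1, Nrg2 and Nrg3 (red) in 3 non-neuronal classes lie at or below the low end of the 12 neuron markers (grey), with only Syt1 in Schwann cells below Nrg1 and Nrg2. At right, Erbb2 and Erbb3 in neurons lie among the markers of satellite glia and of Schwann cells, and Egfr lies above them.

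Shares of nuclei with a UMI were taken after thinning each nucleus to 1000 UMIs. Nrg1 was found in 53.1% ± 3.63 of neurons (SD over 12 pools, 77.5% unthinned over all nuclei), Nrg2 in 17.5% ± 1.38 (44.1%) and Nrg3 in 90.3% ± 1.79 (96.6%). In mural cells of vessels, which should lack axonal ligand and glial receptor, 7.50% of 160 nuclei had Nrg1, 2.50% Nrg2 and 28.1% Nrg3, with unthinned medians of 1645.5 UMIs there and 2910 in neurons. Erbb3 was found in 17.9% ± 2.82 of satellite glia (41.6% unthinned, median 2085 UMIs) and 34.5% ± 4.52 of Schwann cells (51.7%, median 1515 UMIs). Its share in neurons, 1.47% ± 0.583 (4.38%), was no higher than the 2.50% of mural cells (4 of 160 nuclei, exact binomial interval 0.685% to 6.28%) and could not be told from it at this depth. Erbb4 was found in 14.3% ± 3.13 of satellite glia (32.3% unthinned), 8.69% ± 3.39 of Schwann cells (16.4%) and 2.17% ± 0.457 of neurons (6.67%), against 1.25% in mural cells (0.152% to 4.44%). These intervals cover counting error only.

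Among 17409 neurons thinned to 2000 UMIs, 99.04% ± 0.342 (SD, n = 12) had a UMI of at least 1 ligand. At the same depth so did 85.6% of 2749 satellite glia and 54.5% of 77 mural nuclei, so a UMI alone does not set neurons apart. In neurons, Nrg1 and Nrg3 were found together in 69.98% ± 3.43, Nrg3 without Nrg1 in 27.4% ± 3.13 and Nrg1 without Nrg3 in 1.52% ± 0.396. All 3 ligands were found in 23.4% ± 2.29. Absence at this depth does not show that a nucleus lacks the transcript.

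Promoter letters are shown for 1 ligand with its highest level in neurons and for 2 receptors with low levels there. RefSeq's table for the GRCr8 assembly, which is not the build of the counts, held entries for 5 of the 7 genes and none for Nrg1 or Erbb3. The 250 bases before the start of the gene are given 5′ to 3′ on the gene's strand, with the GC box (GGGCGG or its reverse complement, searched on both strands) in capitals. The Nrg3 window is chr16:15374108-15374357 on the minus strand, that of Erbb2 chr10:83907351-83907600 on the plus strand, and that of Erbb4 chr9:78045607-78045856 on the minus strand.
Nrg3: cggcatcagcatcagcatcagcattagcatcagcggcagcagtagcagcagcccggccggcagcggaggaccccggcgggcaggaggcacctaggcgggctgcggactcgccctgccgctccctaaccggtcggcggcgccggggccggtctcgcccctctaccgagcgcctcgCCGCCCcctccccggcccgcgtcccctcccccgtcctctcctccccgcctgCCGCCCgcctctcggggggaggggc
Erbb2: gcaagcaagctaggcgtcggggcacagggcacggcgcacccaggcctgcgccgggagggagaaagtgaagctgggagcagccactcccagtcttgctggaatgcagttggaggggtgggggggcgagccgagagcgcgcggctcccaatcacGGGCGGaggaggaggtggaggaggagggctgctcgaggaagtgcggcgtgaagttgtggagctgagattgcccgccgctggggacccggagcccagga
Erbb4: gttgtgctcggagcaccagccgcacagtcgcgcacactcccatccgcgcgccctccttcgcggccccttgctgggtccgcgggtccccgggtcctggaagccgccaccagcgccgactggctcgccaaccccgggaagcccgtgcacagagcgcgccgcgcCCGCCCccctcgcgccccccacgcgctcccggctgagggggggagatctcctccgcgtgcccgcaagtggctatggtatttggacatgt
Nrg3 held 2 GC boxes and Erbb2 and Erbb4 1 each, and 30.5% of 33469 rat promoters of this length held at least 1. Their GC content was 77.2%, 69.2% and 73.6%, against a median of 51.2% over all promoters. The letters ACAAAG or ACAATG, core matches of SOX factors such as the glial factor Sox10, were in 25.3% of all promoters and in 0 of the 5 windows of these genes, which says only that the letters are not there.

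Summed over each type, Nrg1 was lower, and Nrg3 higher, in jugular-like than in nodose-like neurons. Nodose-like neurons (12600 nuclei) and jugular-like neurons (2133 nuclei) were named by marker lists with rules settled after the clusters had been seen, and 10313 other neurons fitted neither. Of 8 jugular markers 6 were at least 2-fold higher in the jugular-like class than in the remaining neurons, and of 8 nodose markers 3 in the nodose-like class. Nrg1 was at 899 to 1435 CPM (median 1162) in the pools of nodose-like neurons and at 623 to 1024 CPM (median 745) in those of jugular-like neurons, and these ranges overlapped. Nrg3 was at 2662 to 3264 CPM (median 2817) and 4237 to 5287 CPM (median 4394), with no overlap. Single subclusters of the types did overlap. Over all pools, nodose-like subclusters had 300 to 2271 CPM of Nrg1 and jugular-like ones 567 to 959. For Nrg3 they had 835 to 4820 and 2290 to 4715 CPM.

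In the fit with pool as a block 6 of 6 genes tested differed between the types (42.9% of all genes), and Erbb2 was too low to be tested. Nrg1 was 1.505-fold lower in jugular-like neurons (log2 -0.59 ± 0.06, adjusted p 2.14e-11), Nrg3 1.57-fold higher (log2 0.65 ± 0.04, adjusted p 1.13e-16) and Nrg2 1.21-fold higher (log2 0.27 ± 0.06, adjusted p 0.000197). The Nrg2 call was lost when the clustering was repeated at a resolution of 2 (log2 0.13, adjusted p 0.0909). Erbb4 was 2.22-fold higher (15.8 ± 2.78 CPM to 34.2 ± 12.5, SD, n = 12), Egfr 2.06-fold (15.4 ± 3.61 to 31.03 ± 6.98) and Erbb3 1.51-fold (11.9 ± 3.91 to 19.4 ± 12.4). Satellite glia markers summed to 97.6 ± 26.997 CPM in nodose-like and 183 ± 81.2 CPM in jugular-like neurons (SD, n = 12), and Schwann markers to 396 ± 49.8 and 521 ± 72.3 CPM. The nodose-like sum of satellite glia markers was 74.0 ± 17.3 CPM without its Klhl1, Grin2a and Agtr1a subcluster. The part of these markers in the receptor differences was not tested. Nrg1 and Nrg3 differed in opposite directions between the types.

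Among 27 neuron subclusters with at least 6 pools of 10 or more nuclei, Nrg1 spanned 7.53-fold. Subclusters are described by their leading genes, and their levels are a description without a test. Nrg1 was lowest, 304 ± 48.8 CPM (SD, n = 12), in nodose-like neurons led by Edn3 and Chrdl1. It was highest, 2291 ± 540.3 CPM (n = 11), in neurons led by Syndig1 and Cdh7. Close behind stood neurons led by Xylt1, Sctr and Cckar (2287 ± 306 CPM), by Itgae, Chrm2 and Gpr65 (2284 ± 553 CPM) and by Pappa2 and Nox4 (2155 ± 217 CPM). In this order no neighbouring subclusters were apart in all pools, so only distant positions differ beyond the spread.

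Nrg3 followed another order. It ranged 8.53-fold, from 615 ± 331 CPM (n = 11) in neurons led by Spp1, Kcna1 and Nefh to 5244 ± 579 CPM in neurons led by Tmem233 and Spon1. The Edn3 and Chrdl1 neurons, lowest in Nrg1, were the third highest in Nrg3 (4866 ± 317 CPM, n = 12). Neurons led by Xylt1 and Sctr, among the highest in Nrg1, were at 2290.4 ± 148 CPM of Nrg3 against a median of 3360.4 CPM over the subclusters. Only 1 pair of neighbours in the Nrg3 order did not overlap: the Itm2a and S1pr3 neurons (2088 ± 130 CPM, lowest pool 1933) against the Klhl1 and Grin2a neurons next below (1112 ± 197 CPM, highest pool 1481). Across 29 subclusters the Pearson r of Nrg1 with Nrg3 was 0.11 (Spearman's rho 0.0079), a description over groups that share the same libraries.

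Nrg2 ranged 9.96-fold, from 43.6 ± 34.7 CPM in the Spp1, Kcna1 and Nefh neurons to 434 ± 50.4 CPM (n = 7) in neurons led by Poteg and Kcnj6. Its r with Nrg3 was 0.59 (rho 0.30) over the same 29 subclusters, whose levels share depth and composition.

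**Figure D3:**
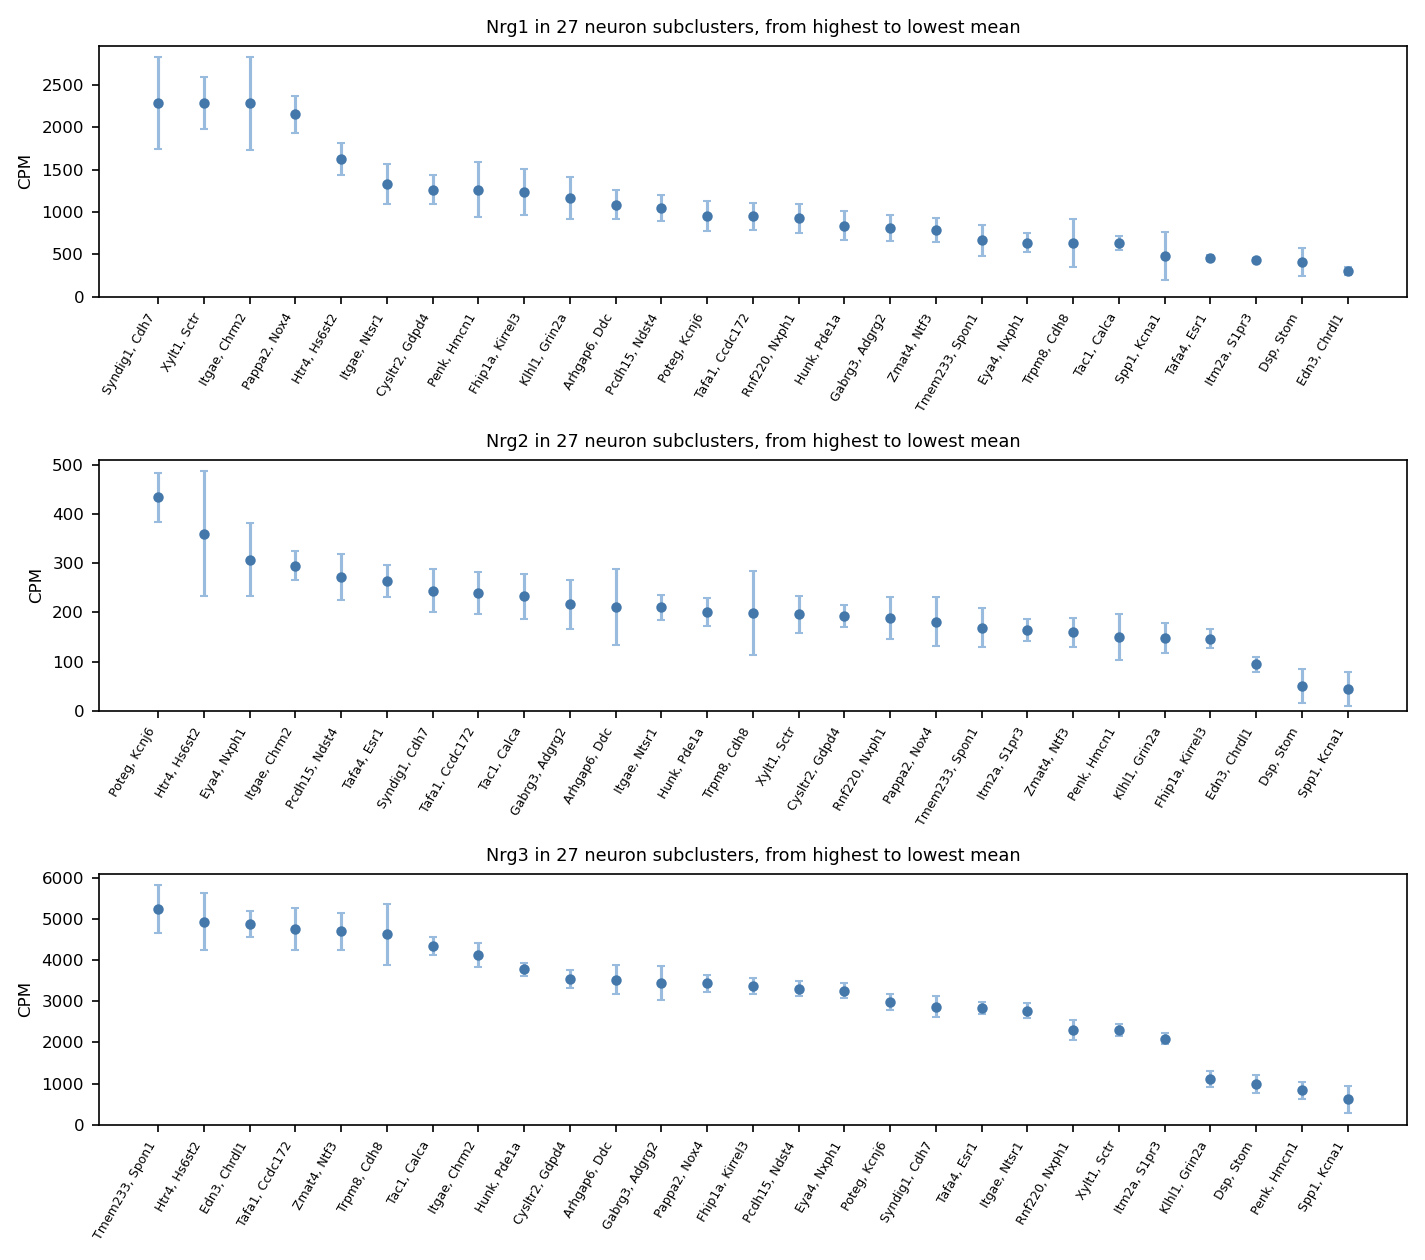
Mean level in CPM (points) with the SD over pools (bars) of Nrg1, Nrg2 and Nrg3 in 27 neuron subclusters, each panel sorted by its own gene and each subcluster named by 2 leading genes. The Edn3 and Chrdl1 neurons stand last for Nrg1 (304 CPM) and near the top for Nrg3 (4866 CPM), and the Spp1 and Kcna1 neurons stand last for Nrg2 and Nrg3.

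The Spp1, Kcna1 and Nefh neurons (271 nuclei), whose leading genes are those of large fast-conducting fibres, were low in all 3 ligands. This subcluster and those described next were chosen after their values were seen, so no test is given. Nrg1 was at 483 ± 285 CPM there and 1120 ± 161 in the other neurons (SD, n = 11), Nrg2 at 43.6 ± 34.7 and 202 ± 16.9, and Nrg3 at 615 ± 331 and 3230.3 ± 235. In 0 of 11 pools was any of the 3 higher in this subcluster. The sum of Schwann markers was 624 CPM there against 403 in the other neurons and that of satellite glia markers 152 against 103, and their part in the result was not tested. The Dsp and Stom nodose-like neurons were likewise low, with 412 ± 162 CPM of Nrg1, 49.97 ± 34.2 of Nrg2 and 988 ± 226 of Nrg3. Neurons led by Gabrg1 and Spp1 (70 nuclei, Nefh at 2975 CPM over all pools) were not low in Nrg1. Their neuron markers summed to 22804 CPM, and over all pools they had 1600 CPM of Nrg1, 150 of Nrg2 and 1658 of Nrg3. All neurons together stood at 1089, 201 and 3169 CPM. Across 29 subclusters the Pearson r with Nefh was -0.10 for Nrg1, -0.59 for Nrg2 and -0.53 for Nrg3. Spearman's rho was -0.06, -0.40 and -0.32. Other genes of large fibres differed, with r for Nrg2 from -0.71 (Nefl) to 0.03 (Scn1a) and for Nrg3 from -0.69 (Nefl) to -0.16 (Kcna1). Among genes of unmyelinated neurons r for Nrg2 ran from -0.47 (Prph) to 0.14 (Scn11a) and for Nrg3 from -0.52 (Prph) to 0.29 (Trpv1). No link to fibre type is drawn from them.

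Erbb4 had its highest neuronal level in a subcluster led by Rnf220, Nxph1 and Slit2 (675 nuclei, 226 Erbb4 UMIs). It was at 80.5 to 209 CPM in the 12 pools there (mean 122 ± 42.1) and at 13.3 to 25.6 CPM in the other neurons (mean 18.96 ± 4.26), with no overlap. Its Erbb3 level was 16.2 ± 16.6 CPM against 13.1 ± 4.31, its satellite glia markers summed to 135 CPM against 106 and its Schwann markers to 410.3 against 414. Erbb4 was 6.43-fold and satellite glia markers 1.27-fold higher there, and Schwann markers were at 0.990 of the level in the other neurons. The part of glial RNA in this Erbb4 level was not tested. Nrg3 in the same neurons was lower than in the others in 12 of 12 pools (2293 ± 248 against 3207 ± 234 CPM).

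Egfr in neurons was highest in the Klhl1, Grin2a and Agtr1a subcluster (415 nuclei, 110 UMIs), at 64.2 ± 34.3 CPM against 15.1 ± 3.01 and higher in 11 of 12 pools. Erbb3 (60.9 against 12.3 CPM) and Erbb2 (8.00 against 1.55 CPM) were also higher there, and satellite glia markers summed to 813 CPM against 93.3. The part of glial RNA in these receptor levels was not tested. The next highest Egfr level, 41.0 ± 12.5 CPM, was in jugular-like neurons led by Tac1 and Calca, the genes of peptidergic nociceptors.

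Receptor levels varied among clusters of satellite glia. Glia led by Tnc, Fbln2 and Tyrp1 (444 nuclei) had Erbb3 at 298 to 434 CPM (mean 363 ± 44.1) against 174 to 211 CPM (mean 193 ± 12.4) in the other satellite glia, with no overlap over 11 pools. Their Erbb4 was at 268 ± 115 against 141 ± 23.5 CPM, higher in 9 of 11 pools. Satellite glia markers summed to 3817 against 1936 CPM there (1.97-fold), and neuron markers to 5972 against 9514 CPM. Glia led by Efemp1 and Col28a1 (1114 nuclei) were lower in Erbb3 (144 ± 17.5 against 232 ± 20.8 CPM) and Erbb4 (108 ± 17.2 against 168 ± 35.3 CPM) in 12 of 12 pools, with satellite glia markers at 1345 against 2353 CPM. The part of these marker differences in the receptor differences was not tested.

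**Figure D4:**
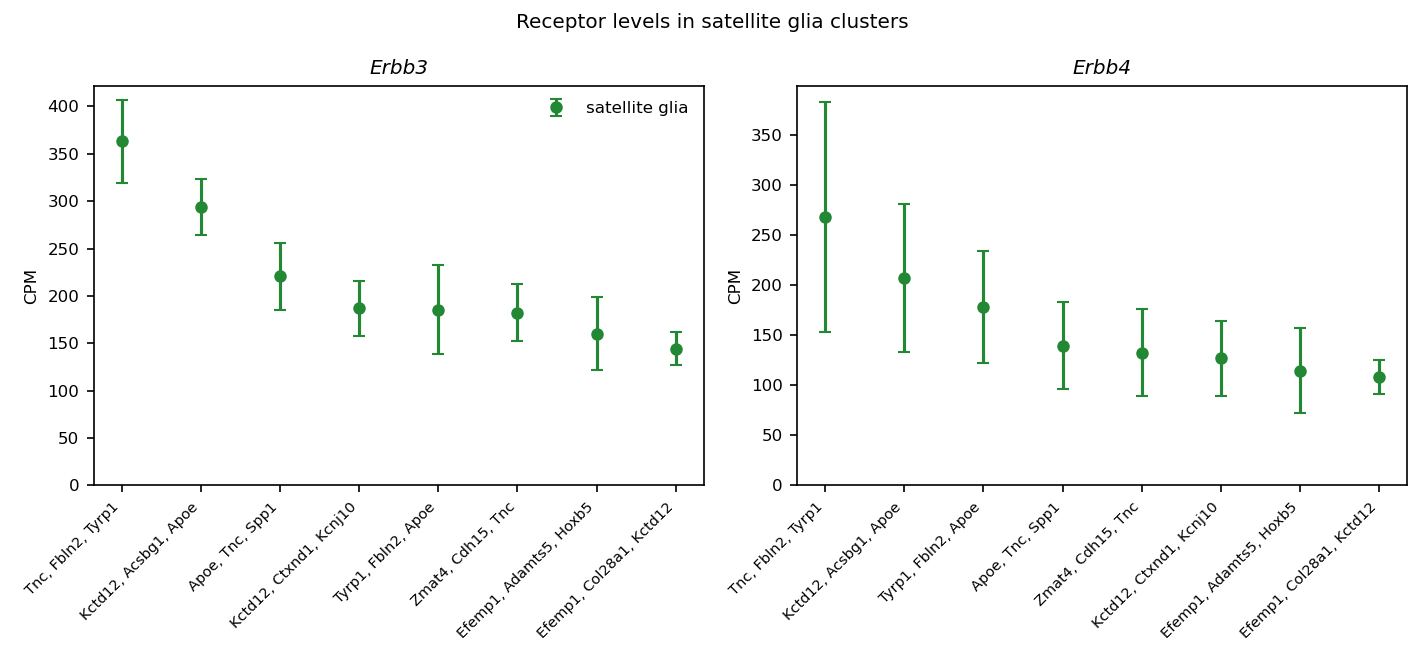
Mean level in CPM (points) with the SD over pools (bars) of Erbb3 and Erbb4 in clusters of satellite glia, named by 3 leading genes and sorted by level. The Tnc, Fbln2 and Tyrp1 glia stand highest for both receptors (363 and 268 CPM) and the Efemp1 and Col28a1 glia lowest (144 and 108 CPM).

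Smaller classes gave single values. In fibroblast-like nuclei (77 nuclei, 8 of 8 fibroblast markers at least 2-fold above the other nuclei) Egfr had 67 UMIs, or 546 CPM (exact Poisson interval 423 to 693, counting error only), and a UMI in 41.6% of nuclei (37.3% after thinning to 1000 UMIs). Endothelial nuclei, at 2.94% after thinning and with a median of 1633 UMIs against 1146, serve as its background. Only 2 pools had 10 or more of these fibroblast-like nuclei, so no spread over pools is given. A cluster of 344 nuclei that met no naming rule, led by Ddc, Dcc, Dlgap2 and Gata3, had Nrg1 at 1968 to 3365 CPM (mean 2492 ± 486, n = 12), above the range of all neurons, and Nrg3 at 1301 ± 202 CPM, below it. In 72 sympathetic-like neurons, of which only 1 pool had 10 or more, Nrg1 was at 1629 CPM (1446 to 1830, exact Poisson) and Nrg3 at 520.2 CPM (419 to 639).

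No difference between the left and right ganglia passed the test in any of these genes. In neurons 0 of 7 differed by side (0.137% of 13896 genes did, 0.108% higher and 0.0288% lower on the right). At an unadjusted p under 0.05 stood 1 of the 7 and 903 of all 13896 genes. The 1 of the 7 was Erbb3, at 6.42 to 19.96 CPM (median 9.77) on the left and 9.29 to 17.8 CPM (median 16.2) on the right, overlapping (log2 0.41 ± 0.17, edgeR adjusted p 0.74). Satellite glia markers in neurons summed to 78.5 to 107 CPM (median 92.7) in left and 72.5 to 147 CPM (median 127) in right pools. Left pools had 1040.5 ± 174 CPM of Nrg1 and right pools 1170.0 ± 114 (SD over 6 pools, log2 0.16 ± 0.08, adjusted p 0.784 by edgeR).

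In satellite glia 0 of 7 differed by side (0% of 10994 genes). Of the 7, Nrg3 alone had an unadjusted p under 0.05 (log2 -0.16 ± 0.06), as did 466 of all genes. In Schwann cells 0 of 7 differed (0.044% of 6818 genes, 0.0293% higher and 0.0147% lower on the right). Of the 7, Nrg1 (log2 0.29 ± 0.14) and Erbb2 (-0.63 ± 0.24) had an unadjusted p under 0.05, as did 400 of all genes. Schwann Erbb2 was at 28.3 to 58.7 CPM (median 47.2) in left and 14.2 to 33.1 CPM (median 28.6) in right pools, and without ML1 and FL1 its ranges, 38.9 to 58.7 and 14.2 to 33.1 CPM, did not overlap. Its adjusted p was 0.733 with edgeR (0.429 to 1.00 over the alternatives), so it is reported as not passing. In endothelial cells 0 of 4 genes tested differed (0% of 4597 genes). Endothelial Erbb4 was at 36.4 to 155 CPM in left and 57.7 to 118 CPM in right pools, and without ML1 and FL1 the left pools, at 40.1 to 48.4 CPM, lay below all right pools (log2 0.33 ± 0.31 with all pools, edgeR adjusted p 0.998, and 0.87 ± 0.38 with 0.747 without those 2). Leaving out ML1 alone gave 1.07 and leaving out FL1 alone 0.018, and over the alternatives the adjusted p ranged from 0.496 to 1.00. ML1 and FL1 were left out for their sex labels, and how many of all genes part by range without them was not counted. DESeq2 also called 0 by side in each of the 4 classes.

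By labelled sex 0 of 7 passed in neurons (0% of 13896 genes), yet 2643 of all genes and 5 of the 7 had an unadjusted p under 0.05. All 5 were lower in female-labelled pools. Nrg1 was at 897, 1137, 1329, 1193, 1278 and 1315 CPM in the pools ML1 to ML3 and MR1 to MR3, and at 1065, 869, 946, 1129, 1015 and 1091 CPM in FL1 to FL3 and FR1 to FR3. The pool labelled ML1 was the lowest of the male-labelled pools, and with ML1 and FL1 left out the ranges did not overlap (1137 to 1329 against 869 to 1129 CPM). How many of all genes part by range in this way was not counted. The log2 difference was -0.25 ± 0.08 (edgeR adjusted p 0.147) with all pools and -0.33 ± 0.07 (adjusted p 0.0893) without those 2.

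Nrg3 was at 3138 to 3658 CPM (median 3355) in male-labelled and 2893 to 3154 CPM (median 3015) in female-labelled neurons, with an overlap so narrow that only ML3 and 2 female-labelled pools (FL2 and FR3) lay in it. Its log2 difference was -0.17 ± 0.05 (edgeR adjusted p 0.104) with all pools and -0.17 ± 0.05 (adjusted p 0.18) without ML1 and FL1. It passed with DESeq2 (log2 -0.18, adjusted p 0.0188) and without MR1 (-0.20, adjusted p 0.0287 by edgeR). Over the alternatives its adjusted p ranged from 0.0188 to 0.256.

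The receptors in neurons ran the same way. Egfr was at 15.1 to 23.8 CPM (median 16.4) in male-labelled and 11.3 to 15.7 CPM (median 14.4) in female-labelled pools, overlapping (log2 -0.35 ± 0.10, edgeR adjusted p 0.109, and -0.31 ± 0.12 with 0.221 without ML1 and FL1). Erbb3 was at 8.28 to 19.96 CPM (median 17.0) and 6.42 to 15.9 CPM (median 9.88) (log2 -0.59 ± 0.17, edgeR adjusted p 0.117, and -0.57 ± 0.20 with 0.202 without them). Satellite glia markers in neurons summed to 78.5 to 147 CPM (median 110.3) in male-labelled and 72.5 to 138 CPM (median 97.9) in female-labelled pools, and their part in these differences was not tested. Neuron markers summed to 7854 to 9379 CPM (median 8838) in male-labelled and 8999 to 10463 CPM (median 10072) in female-labelled pools, the other way from the 7 genes, and their part was not tested either. Erbb4 had a log2 difference of -0.29 ± 0.12 (edgeR adjusted p 0.213), and -0.18 ± 0.12 with 0.510 without ML1 and FL1. Nrg2 had one of -0.08 ± 0.06 (-0.06 ± 0.07 without them) and Erbb2 one of -0.15 ± 0.21 (-0.03 ± 0.24).

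The number of the 7 genes that passed by labelled sex in neurons was 0 with all pools and the low-count filter, 2 without the filter (Nrg1, adjusted p 0.0385, and Erbb3, 0.0169), 2 with DESeq2 (Nrg3, and Erbb3 at 0.035) and 1 without MR1 (Nrg3). These settings also moved the count over all genes, from 0 to 313 higher and 186 lower without the filter, 216 and 159 with DESeq2, 332 and 181 without MR1, and 16 and 10 without ML1 and FL1. In satellite glia, Schwann cells and endothelial cells 0 of 7, 0 of 7 and 0 of 4 genes differed by labelled sex (0% of all genes in each), and DESeq2 called 0. An unadjusted p under 0.05 was found for 809 of 10994 genes in satellite glia and 406 of 6818 in Schwann cells. At that level Nrg1 and Nrg3 were lower in female-labelled satellite glia (log2 -0.15 ± 0.07 and -0.14 ± 0.06) and Schwann cells (-0.33 ± 0.13 and -0.26 ± 0.11). Without ML1 and FL1 0 genes passed in these 3 classes, and the values were -0.21 ± 0.07 and -0.11 ± 0.07 in satellite glia and -0.38 ± 0.15 and -0.16 ± 0.12 in Schwann cells. Erbb4 in satellite glia moved from 0.18 (edgeR adjusted p 0.78) with all pools to 0.38 ± 0.09 (0.119) without them. Endothelial Erbb4 moved from -0.15 to 0.43 ± 0.29 (adjusted p 0.951). In Schwann cells the neuron markers summed to 3153 to 4181 CPM (median 3811) in male-labelled and 2205 to 3888 CPM (median 2917) in female-labelled pools, and their part was not tested.

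The interaction, which asks whether the side difference depends on labelled sex, was tested in neurons and gave 0 of 7 genes (0% of all genes, 528 of 13896 at an unadjusted p under 0.05). None of the 7 had an unadjusted p under 0.05, and DESeq2 called 0. The interaction estimates ranged from -0.28 ± 0.43 for Erbb2 to 0.31 ± 0.35 for Erbb3 on the log2 scale.

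**Figure D5:**
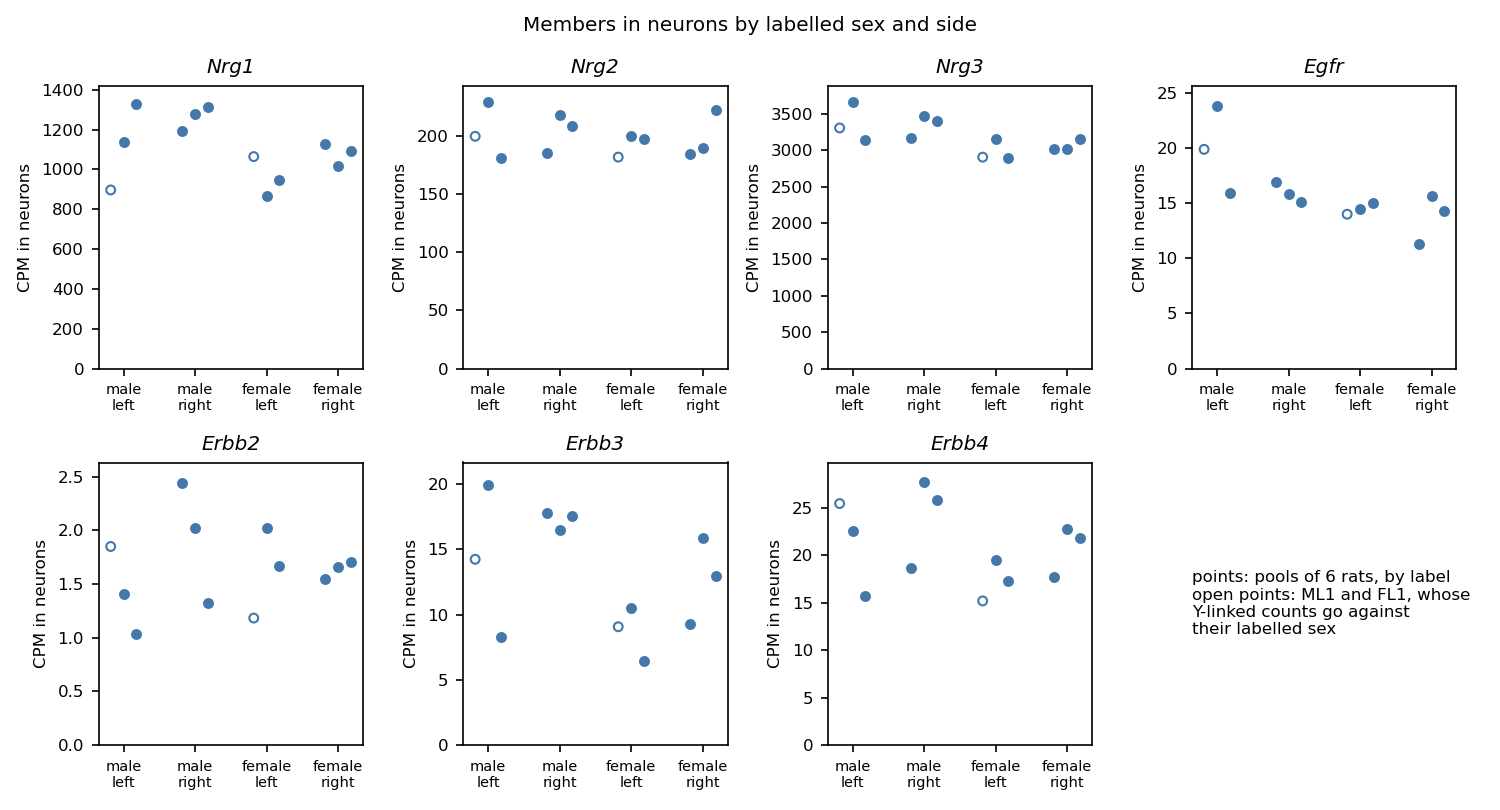
Level of the 7 genes in neurons in CPM (vertical axis, from 0) in each of the 12 pools by labelled sex and side, with ML1 and FL1 as open points. For Nrg1 the open male-labelled point (897 CPM) lies below the other 5 male-labelled points, and for all 7 genes the left and right pools overlap.

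The wider pathway was read from 82 genes in 5 lists. In satellite glia over neurons 70 of the 82 were tested, 35 were higher and 26 lower (36.8% and 40.4% of all genes). The medians were 0.12 for the lists and -0.02 for all genes on the log2 scale. Of the other EGF-family ligands all 3 tested were higher in satellite glia, among them Tgfa, a ligand of Egfr (7.84-fold). Of the proteases that cleave neuregulins 4 of 8 were higher and 4 lower, the lower ones including Adam19 (1.94-fold) and Adam9 (1.68-fold). Of the adaptors and kinases 12 of 34 were higher and 16 lower, with Shc4, an adaptor of receptor kinases, 7.65-fold higher and Shc2 1.78-fold lower. Response genes were higher in 7 of 8, led by the cyclin Ccnd1 (14.5-fold), with a median of 1.54.

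In Schwann cells over neurons 32 of the 70 were higher and 23 lower (38.6% of all genes in each direction). Response genes were higher in 7 of 8 with a median log2 of 3.65, led by Pou3f1, a transcription factor of promyelinating Schwann cells (102-fold, log2 6.68 ± 0.23), Ccnd1 (37.4-fold) and Fos (17.9-fold). The adaptors Shc1, Shc2 and Shc3 were 2.81-fold, 3.85-fold and 2.92-fold lower. Of the proteases 4 of 8 were higher and 3 lower, and of the negative regulators, which limit or degrade the receptors, 8 of 17 were higher and 4 lower.

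Between the glial classes 34 of the 70 were higher in Schwann cells and 22 lower (31.8% and 32.2% of all genes). Pou3f1 was 16.7-fold, Fos 9.46-fold and the adaptor Gab1 3.16-fold higher in Schwann cells. Bace1, the protease known for processing Nrg1 in axons, was 1.74-fold lower, Shc2 2.16-fold lower and Shc3 3.80-fold lower. Neuron markers stood at a median of 91.2% of their neuron level in satellite glia and 40.4% in Schwann cells. The part of neuron RNA in these lower levels was not tested. In jugular-like over nodose-like neurons 18 of 64 tested were higher and 21 lower (21.8% and 21.1% of all genes), with the transcription factor Jun (4.58-fold), Gab1 (2.67-fold) and Lrig1, an inhibitor of ErbB receptors (2.30-fold), higher and Spry2 (3.15-fold), Hbegf, an Egfr and Erbb4 ligand (2.22-fold), and Spry4 (2.06-fold) lower. By side and by labelled sex 0 of 73 tested in neurons passed.

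For each of the 7 genes, the 3 genes with the most similar pattern over 37 classes and subclusters were taken from 9984 genes by Pearson's r of log2(CPM + 5), a description over groups that share the same libraries. Nrg1 was most like Eml6 (0.79), Osbpl6 (0.78) and Apba2 (0.77), Nrg2 like Arhgap21 (0.89), Rims2 (0.87) and Mtcl1 (0.86), and Nrg3 like Galnt13 (0.91), Grip1 (0.88) and Grm7 (0.87). Erbb3 was most like Igsf11 (0.98), Gpm6b (0.98) and Reln (0.97), and Erbb2 like Axl (0.96), Ror1 (0.95) and Rreb1 (0.95). Erbb4 was most like Slitrk2 (0.86), Gpsm2 (0.81) and Limch1 (0.81), and Egfr like Cldn1 (0.85), Fzd2 (0.85) and Clec3b (0.82). No gene was named for more than 1 of the 7.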

How the data were processed

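Single-nucleus RNA of rat nodose ganglia was measured in 8 sublibraries, and the deposited matrix holds raw UMI counts per gene and nucleus, which the authors made before deposit. Per the submitters' processing notes the genome build was mRatBN7.2 and R 4.3.2 and Seurat 4.1.3 were used, and an aligner is not given in the sources used here. All 12 pools were read from the deposited nucleus table. The 7 genes and all lists were chosen with earlier results of these data known.

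Nuclei with under 300 genes or over 5% mitochondrial UMIs were left out. Classes came from clustering the same nuclei without the 7 genes (scanpy 1.11.5, leidenalg 0.10.2, 30 principal components, 20 neighbours, resolution 1). They were named by marker lists, with the rules for nodose-like, jugular-like and mixed subclusters settled after the clusters were seen. Scrublet called 2 nuclei (0.00544%), which means it did not work, and its calls were not applied.

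UMIs were summed per pool and class and tested with edgeR 4.0.16 (quasi-likelihood, TMM, filterByExpr, Benjamini-Hochberg over all genes tested) in R 4.3.3, for classes with 20 or more nuclei in every pool. Side was fitted with labelled sex as a term, and classes with pool as a block. Fits were checked on simulated data. Alternatives were DESeq2 1.42.0, no filter, no TMM, each pool left out, ML1 and FL1 left out, the 1837 highest doublet scores removed, resolutions 0.5 and 2, other blocks and other thinning depths. Subcluster means use pools with 10 or more nuclei. The named pathway genes are the called genes with the 3 largest and 3 smallest log2 changes in a comparison. Depth was 7139364 to 19456287 UMIs per pool. A comparison among Schwann cell clusters is not reported here.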

Additional observations from a re-analysis of the deposited data

Results flagged for a closer look

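In 3 of 50 groups of 6 pools 1 pool stood far from the rest, where chance alone would set apart about 5% of such groups. Egfr in left Schwann cells was at 84.5 CPM in FL3 (11 UMIs), with the nearest other left pool at 52.4 CPM. Erbb2 in right Schwann cells was at 14.2 CPM in MR3 (3 UMIs), with the nearest other right pool at 27.2 CPM. Erbb4 in left endothelial cells was at 155 CPM in ML1 (29 UMIs), with the nearest other left pool at 48.4 CPM, and ML1 is a pool whose Y-linked counts went against its label.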

How the results depend on the processing

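Of 1933 alternative values of the 7 genes in the 16 comparisons, 1925 kept their side of the threshold, 3 lost a call and 5 gained one. The sign differed from that of the value reported in 97, of which 0 passed the test in either fit (lowest adjusted p 0.859). The calls lost were Egfr in endothelial cells over neurons (log2 0.40 without the low-count filter, 0.51 without FR2) and Nrg2 in jugular-like over nodose-like neurons (0.13 at resolution 2). By labelled sex in neurons 0 genes passed with edgeR, 2 without the low-count filter and 2 with DESeq2, and leaving out 1 pool gave 0 to 1 (1 without MR1). The cause was not tested. Over all genes, side in neurons gave 15 higher and 4 lower, 43 and 16 with DESeq2, 1 and 0 without ML1 and FL1, and 2 and 1 with the replicate block. Side calls on the 7 genes stayed at 0 with the replicate block. The numbers were not taken as pairs, since same-numbered left and right pools correlated at -0.0909 to 0.565 over 5172 genes (0.565 in male 2, 0.146 in female 1, under 0.1 in the others). The 3 other changed counts of the 16 fell by 1 with the 3 lost calls.

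Shares of nuclei with a UMI follow depth. Unthinned, the means over pools were 77.5% for Nrg1, 43.9% for Nrg2 and 96.6% for Nrg3 in neurons. At 2000 UMIs they were 71.5%, 32.0% and 97.4%. For Erbb3 they were 4.31% in neurons, 42.2% in satellite glia and 51.97% in Schwann cells unthinned, and 2.35%, 33.0% and 53.4% at 2000 UMIs. For Erbb4 they were 32.9% in satellite glia and 6.54% in neurons unthinned, and 25.1% and 3.76% at 2000 UMIs. Depth limits Erbb2 most, with 1011 UMIs in all nuclei. RNA of other nuclei, the contradicted labels of 2 pools and the lack of working doublet calls limit every comparison.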
